A study of Mus musculus with 11 samples.

Results

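Collagens are the triple-helical proteins that give connective tissue its fibres and basement membranes. The collagen genes of the mouse small-intestinal mesenchyme are described here across sorted populations and single cells. Members were taken by symbol, as all genes named Col, a number, a and a number. The rule found 44 genes of the 24943 symbols in the bulk table, and the same 44 in each of 3 single-cell matrices. In the bulk data 36 of the 44 passed the filter on low counts and were tested. The other 8 (Col2a1, Col6a6, Col9a1, Col9a2, Col10a1, Col11a1, Col19a1 and Col25a1) did not exceed 1.52 CPM (counts scaled to a library of standard size) in any library, and Col2a1, the fibrillar collagen of cartilage, had 0 counts in all 8.

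The series asks which cells beneath the intestinal epithelium produce its signals. Bulk RNA was sequenced from 4 sorted populations, with 2 libraries each. Telocytes were the GFP-high cells and PDGFRAlo stromal cells the GFP-low cells of the transgenic PDGFRAH2BEGFP line, in which nuclear GFP is made from the Pdgfra gene, so brightness of the reporter defines both groups. Blood endothelium (CD31+LYVE1-) and lymphatic endothelium (CD31+LYVE1+) came from C57BL/6 mice and were sorted with antibodies. In addition there were 3 droplet single-cell libraries: 1 of GFP+ cells, loaded as GFP-low and GFP-high cells at 2:1, and 2 of whole mesenchyme. All tissue was whole small intestine, stripped of muscle and of epithelium and digested with collagenase II. The labels give no age or sex, and do not say whether 2 libraries of a group came from separate animals, so p-values measure the spread between libraries, which may be technical.

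Each collagen molecule is a trimer of chains, and the kind of chain decides the kind of assembly. Fibrillar chains (types I, III, V, XI, XXIV and XXVII) form or nucleate fibres, type IV chains form the sheet of the basement membrane, and type VI chains form beaded filaments that join fibres to basement membrane. FACIT collagens decorate fibres, multiplexins carry sugar chains and sit at basement membranes, and transmembrane collagens stay anchored in the cell surface. The 6 type IV genes lie head to head in pairs, each pair read outward from a shared stretch: Col4a1 with Col4a2, Col4a3 with Col4a4, and Col4a5 with Col4a6. Col4a1 and Col4a2 make the common network, whereas the other chains are known from kidney, lung, ear and from basement membranes around smooth muscle.

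The stretches between the type IV pairs are shown because telocytes and PDGFRAlo cells differed in opposite directions for 2 of the pairs, as given below. In GENCODE M21 on GRCm38 the annotated starts of Col4a4 and Col4a3 on chromosome 1 were 71 bases apart, and those of Col4a6 and Col4a5 on the X chromosome 1308 bases apart. Col4a1 and Col4a2 on chromosome 8 overlap by 22 bases at their starts. Sequences are from RefSeq, GRCm38.p6, 5′ to 3′, and no annotated exon lies in any of them. The first is upstream of Col4a6 (chrX:141474077-141474326, minus strand), the second upstream of Col4a5 (chrX:141475169-141475384, plus strand), and the last is the whole stretch between Col4a4 and Col4a3 (chr1:82586850-82586920, minus strand).
Col4a6 upstream: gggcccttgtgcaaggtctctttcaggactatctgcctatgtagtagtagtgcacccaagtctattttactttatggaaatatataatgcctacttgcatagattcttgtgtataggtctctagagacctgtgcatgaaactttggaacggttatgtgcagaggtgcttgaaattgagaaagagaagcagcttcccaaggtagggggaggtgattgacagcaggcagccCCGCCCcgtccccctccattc
Col4a5 upstream: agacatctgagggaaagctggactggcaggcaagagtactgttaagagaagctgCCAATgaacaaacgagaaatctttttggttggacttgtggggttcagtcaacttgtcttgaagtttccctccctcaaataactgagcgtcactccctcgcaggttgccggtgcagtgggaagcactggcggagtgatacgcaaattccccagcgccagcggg
Col4a4 to Col4a3: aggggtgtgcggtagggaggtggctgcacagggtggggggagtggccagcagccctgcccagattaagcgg
Capitals mark matches to 3 short promoter motifs, each searched on both strands. They are the CAAT box (CCAAT), the GC box (GGGCGG) and the TATA box (TATAAA). The Col4a6 stretch held 1 GC box, which reads CCGCCC on the strand shown, and 32.7% of 32851 RefSeq promoter windows cut to the same length held it. The Col4a5 stretch held 1 CAAT box, as did 30.5% of windows. The Col4a4 to Col4a3 stretch held none of the 3, where 13.3% of windows of its length held the CAAT box, 20.7% the GC box and 4.41% the TATA box. A match describes letters and not a bound site, and of the 44 genes 35 had a promoter entry.

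Bulk libraries held 8549348 to 55382442 counts, with lymphatic replicate 1 the shallowest and blood replicate 1 the deepest. Markers fitted the sorts in part. A list of 12 telocyte genes summed to 7134 to 8112 CPM in telocytes and 569.9 to 597 CPM in PDGFRAlo cells, and 10 of its genes were higher in telocytes (edgeR quasi-likelihood test, adjusted p under 0.05). Blood endothelial markers summed to 48.5 to 74.8 CPM in telocytes and to 1093 to 3181 CPM in PDGFRAlo cells, and all 9 were lower in telocytes. Lymphatic markers summed to 90.1 to 183 CPM in blood endothelium and to 3967 to 7567 CPM in lymphatic endothelium. Of the 6 tested, 5 were lower in blood endothelium. Ccl21a, a defining lymphatic chemokine, was at 0 in all 8 libraries. Plasma cell genes summed to 5089 to 5172 CPM in blood endothelium and to 67144 to 172356 CPM in the lymphatic libraries. Macrophage and dendritic cell genes summed to 3374 to 5392 CPM and to 14857 to 18442 CPM, with 4 of 9 lower and 1 higher in blood endothelium. B cell genes summed to 97.5 to 290 CPM and to 1004 to 3120 CPM. The part of such cells in the lymphatic values was not tested. In bulk RNA, fewer cells of a type and less RNA per cell cannot be told apart.

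Collagen genes took 4.23% and 3.21% of all counts in the telocyte libraries, 7.15% and 6.99% in the PDGFRAlo libraries, 0.228% and 0.342% in blood endothelium, and 0.0336% and 0.0505% in lymphatic endothelium. The populations also differed in kind. Fibrillar chains made up 53.4% and 49.8% of collagen counts in telocytes against 76.7% and 77.4% in PDGFRAlo cells, while beaded-filament chains made up 29.7% and 31.6% against 13.3% and 13.2%. In blood endothelium 82.2% and 72.3% of collagen counts were type IV, and 11.1% and 15.0% were multiplexins. In lymphatic endothelium transmembrane collagens held 41.7% and 60.7%, and type IV chains 36.3% and 20.6%. These are shares of counts, which favour long transcripts. Per kilobase of transcript the leading gene was Col6a1 in telocytes (1197 CPM per kb), Col3a1 in PDGFRAlo cells (5628 CPM per kb), Col4a1 in blood endothelium (227 CPM per kb) and Col23a1 in lymphatic endothelium (40.7 CPM per kb).

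**Figure D1:**
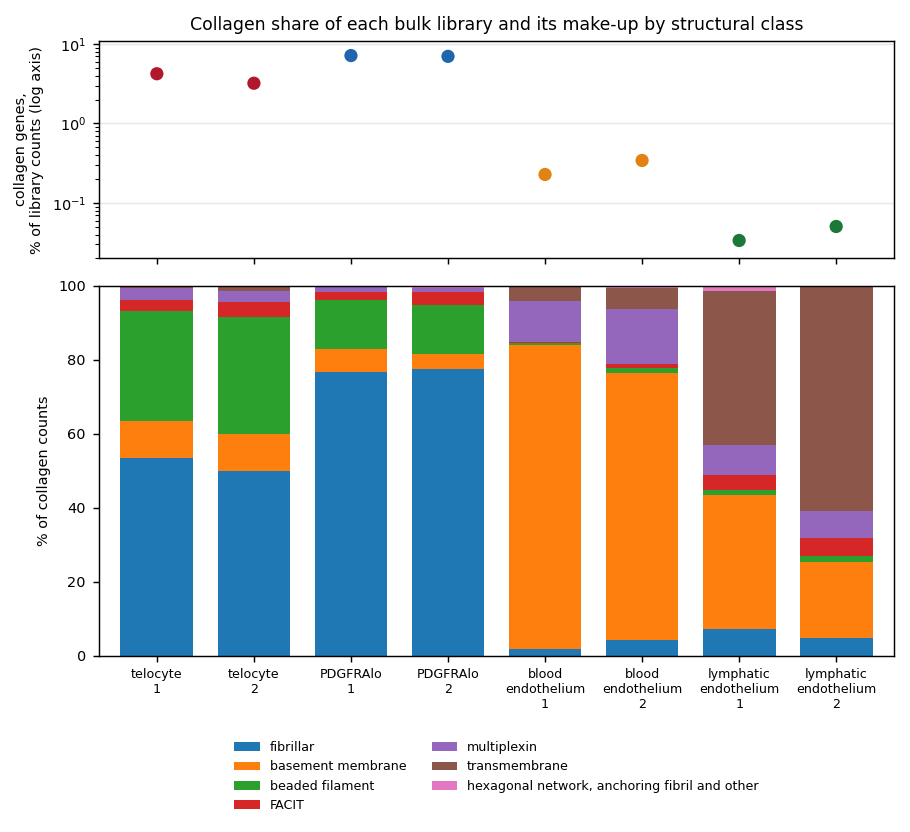
Upper panel: collagen genes as a percentage of all counts, on a log axis, with 1 point for each of the 8 bulk libraries. Lower panel: percentage of those collagen counts in each structural class. Each population's pair of libraries shows the same leading class, fibrillar in telocytes (53.4% and 49.8%) and in PDGFRAlo cells (76.7% and 77.4%), type IV in blood endothelium and transmembrane in lymphatic endothelium.

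The comparison of telocytes with PDGFRAlo cells asks how 2 stromal populations of the same reporter line differ. Of 36 collagens tested, 5 were higher in telocytes (Col4a5, Col4a6, Col12a1, Col24a1 and Col27a1) and 8 lower (Col3a1, Col4a3, Col4a4, Col6a5, Col8a1, Col14a1, Col15a1 and Col28a1). The remaining 23 did not pass. Over all 14893 genes tested, 2.77% were higher and 12.1% were lower in telocytes. Libraries that do not overlap are common with 2 against 2: 29.2% of all genes had both telocyte libraries above both PDGFRAlo libraries, and 32.5% had both below. The median log2 fold (telocyte over PDGFRAlo, as throughout) was -0.77 over the 36 collagens (-0.65 with a gene at 0 counts in one group put at its bound) and -0.03 over all genes. The abundant chains of types I, V and VI were among those that did not pass, which does not show them to be equal.

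Within type IV the 3 gene pairs went separate ways. The α5 and α6 chains were higher in telocytes, the α3 and α4 chains were lower, and the common α1 and α2 chains did not pass. Col4a5 (chrX:141475385-141689234, plus strand) had 447 and 696 CPM in telocytes, against 21.7 and 43.4 CPM in PDGFRAlo cells and 0.540 to 1.14 CPM in the endothelial libraries. Both telocyte libraries lay far above all others, with a log2 fold of 4.13 (SE 0.491, edgeR adjusted p = 0.000791). Its partner Col4a6 (chrX:141165403-141474076, minus strand) had 53.3 and 161 CPM in telocytes, against 1.98 and 7.86 CPM in PDGFRAlo cells. The telocyte libraries again lay above, though replicate 2 was well above replicate 1 (log2 fold 4.43, SE 1.15, adjusted p = 0.0347). Per kilobase, Col4a5 was 8.52 and 4.39 times as high as Col4a6 in telocytes, and 11.2 and 5.62 times as high in PDGFRAlo cells. Pericyte markers summed to 2696 to 2708 CPM in telocytes and to 922 to 1906 CPM in PDGFRAlo cells. Of the 8 genes, 3 were higher and 1 was lower in telocytes. In the single-cell data below, pericyte-like cells had 119 and 100.0 CPM of Col4a5. The part of pericytes in the bulk Col4a5 fold was not tested. The Col4a6 call was lost with DESeq2 and without telocyte replicate 2, either PDGFRAlo library or lymphatic replicate 2 (adjusted p 0.0509 to 0.237 over these settings), while Col4a5 was called under every alternative run.

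Col4a3 (chr1:82586921-82722059, plus strand) had 1.64 and 0.666 CPM in telocytes, against 26.6 and 27.7 CPM in PDGFRAlo cells. Col4a4 (chr1:82448423-82586849, minus strand) had 0.356 and 0.0605 CPM in telocytes, against 4.69 and 6.33 CPM in PDGFRAlo cells. Both were low in telocytes and did not overlap with PDGFRAlo cells, with log2 folds of -4.56 (SE 0.704, adjusted p = 0.00254) and -4.73 (SE 0.919, adjusted p = 0.00793). Blood endothelium, whose markers were lower in the telocyte libraries, itself had 27.0 and 9.68 CPM of Col4a3. The part of such cells in these bulk folds was not tested. Without telocyte replicate 2 the Col4a4 call was lost (adjusted p = 0.0701). Of the annotated exon length 5.65% of Col4a3 and 1.44% of Col3a1 overlap another gene, and whether counting used strand is not stated. The basement-membrane chains Col4a1 and Col4a2, which trimerise together, were high in both populations. Col4a1 had 2047 and 1233 CPM in telocytes, against 2912 and 1793 CPM in PDGFRAlo cells, and the libraries overlapped (log2 fold -0.52, adjusted p = 0.550). Col4a2 had 868 and 622 CPM in telocytes, against 1257 and 986 CPM (log2 fold -0.59, adjusted p = 0.436).

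**Figure D2:**
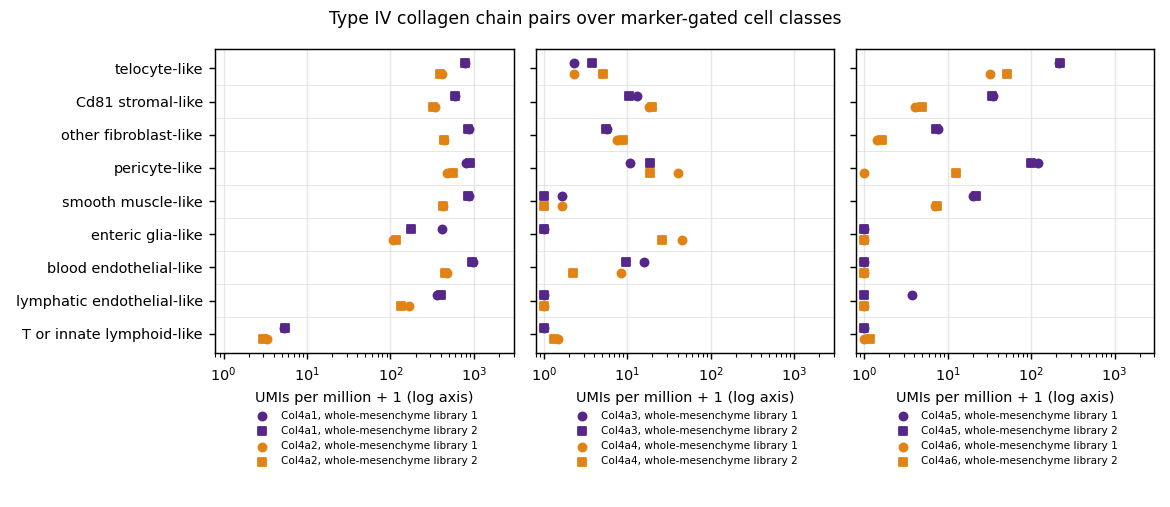
Levels of the 6 type IV chains over marker-gated single-cell classes (rows), as CPM plus 1 on a log axis; circles and squares are whole-mesenchyme libraries 1 and 2. Col4a1 and Col4a2 are high in stromal, pericyte-like, smooth muscle-like and blood endothelial-like cells. Col4a3 and Col4a4 stay under 50 CPM everywhere, and Col4a5 peaks in telocyte-like cells at 214 and 220.2 CPM.

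Among fibrillar collagens, the minor chains Col24a1 and Col27a1 were higher in telocytes and Col3a1 was lower. Col24a1 (chr3:145292472-145552011, plus strand), a chain known from developing bone, had 87.1 and 88.2 CPM in telocytes, against 7.27 and 1.71 CPM in PDGFRAlo cells. It had 0 counts in all 4 endothelial libraries, and telocytes stood alone (log2 fold 4.30, SE 0.685, adjusted p = 0.00587). Col27a1 (chr4:63214004-63334991, plus strand), known from cartilage, had 47.9 and 57.5 CPM in telocytes, against 11.5 and 10.7 CPM in PDGFRAlo cells. Both populations were tight, and the log2 fold was 2.25 (SE 0.369, adjusted p = 0.00341). Col3a1 (chr1:45311538-45349706, plus strand), which encodes the whole of type III collagen of soft tissues and vessel walls, had 6033 and 4689 CPM in telocytes, against 28526 and 34101 CPM in PDGFRAlo cells (log2 fold -2.55, SE 0.549, adjusted p = 0.0131). The groups lay far apart, but without telocyte replicate 1 or 2 the call was lost (adjusted p 0.0582 and 0.110).

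The 2 chains of type I collagen, the main fibre of connective tissue, did not pass. Col1a1 had 6245 and 3325 CPM in telocytes, against 13837 and 8151 CPM in PDGFRAlo cells (log2 fold -1.20, adjusted p = 0.382). Col1a2 had 4680.3 and 3899 CPM, against 8449 and 8589.5 CPM (log2 fold -0.99, adjusted p = 0.264). Both telocyte libraries lay under both PDGFRAlo libraries for each gene. Type V chains, which nucleate fibrils, showed the same order for Col5a1 (675 and 687 against 1234 and 1197 CPM) and Col5a2 (463 and 510.0 against 824 and 969 CPM), with adjusted p = 0.455 and 0.390. Col5a3 overlapped, at 196 and 221 against 175 and 352 CPM. Per kilobase, Col3a1 was 1.03 and 1.50 times as high as Col1a1 in telocytes, and 2.20 and 4.46 times as high in PDGFRAlo cells; the ratio was not tested. The remaining fibrillar chain tested, Col11a2, did not exceed 2.18 CPM.

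**Figure D3:**
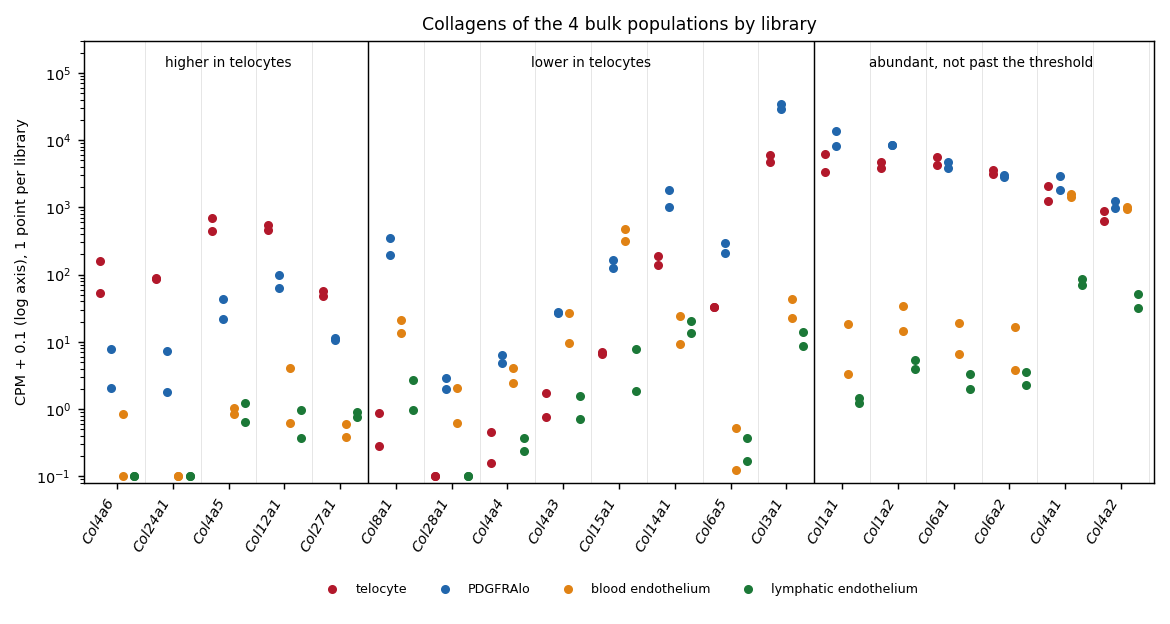
CPM plus 0.1, on a log axis, of the 13 collagens called between telocytes and PDGFRAlo cells and of 6 abundant chains that did not pass, with 1 point per library and 4 populations side by side for each gene. Col4a5, Col4a6, Col24a1, Col12a1 and Col27a1 have both telocyte points above the PDGFRAlo points, and Col8a1 shows the widest gap the other way, 0.784 and 0.182 against 198 and 350.4 CPM.

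Type VI collagen, a trimer of the α1 and α2 chains with one longer chain, had the share of collagen counts given above, and its main chains did not pass. Col6a1 had 5537 and 4282 CPM in telocytes, against 4774 and 3839.9 CPM in PDGFRAlo cells, and Col6a2 3650.0 and 3146 against 3061 and 2826 CPM. Their log2 folds were 0.19 and 0.21 (adjusted p = 0.891 and 0.894). Col6a3 had 953 and 1042 CPM, against 1149 and 2124 CPM (log2 fold -0.71, adjusted p = 0.608). Of the long chains that can take the place of α3, Col6a5 was lower in telocytes. Col6a5 (chr9:105856078-105960643, minus strand) had 33.1 and 33.2 CPM in telocytes, against 210.4 and 296 CPM in PDGFRAlo cells (log2 fold -2.93, SE 0.607, adjusted p = 0.0108), a call lost without telocyte replicate 1 or 2 (0.0752 and 0.0872). Col6a4 had 76.1 and 34.2 CPM, against 28.7 and 14.7 CPM (log2 fold 1.35, adjusted p = 0.537), and Col6a6 was at most 1.52 CPM.

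Col8a1 and Col15a1 marked the lower side, and both are collagens of vessel walls. Col8a1 (chr16:57624258-57754737, minus strand), a short-chain network collagen of subendothelial matrix, had 0.784 and 0.182 CPM in telocytes, against 198 and 350.4 CPM in PDGFRAlo cells. The log2 fold of -9.18 (SE 0.804, adjusted p = 0.000283) was the largest of the 36 collagens. Col8a2 reached 27.8 CPM in PDGFRAlo replicate 2 but 3.96 in replicate 1 (3.49 and 1.82 CPM in telocytes), and did not pass (adjusted p = 0.104). Col15a1 (chr4:47208161-47313167, plus strand), a multiplexin of microvessel and muscle basement membranes, had 6.91 and 6.60 CPM in telocytes, against 166 and 127 CPM in PDGFRAlo cells (log2 fold -4.44, SE 0.630, adjusted p = 0.00166). Both calls held under every alternative run. Blood endothelium had more Col15a1 than either (321 and 473 CPM), and 13.4 and 20.8 CPM of Col8a1. The other multiplexin, Col18a1, the source of endostatin, had 1183 and 818 CPM, against 755 and 580.3 CPM, and did not pass (log2 fold 0.58, adjusted p = 0.673).

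The FACIT collagens Col12a1 and Col14a1, close relatives that bind the surface of type I fibres, went opposite ways. Col12a1 (chr9:79598991-79718831, minus strand) had 459 and 539 CPM in telocytes, against 64.0 and 99.7 CPM in PDGFRAlo cells (log2 fold 2.61, SE 0.745, adjusted p = 0.0448). Col14a1 (chr15:55307750-55520803, plus strand) had 189 and 139 CPM, against 1023 and 1810.1 CPM (log2 fold -3.11, SE 0.553, adjusted p = 0.00507). The libraries did not overlap for either gene. The Col12a1 call was narrow: it was lost without any 1 of the 4 compared libraries or either lymphatic library (adjusted p 0.0676 to 0.218), and that of Col14a1 was lost without telocyte replicate 2 (0.0599). Col16a1 overlapped at 381 and 427 against 397 and 568 CPM, while Col20a1 and Col22a1 did not exceed 8.65 CPM and did not pass.

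Of the transmembrane collagens, Col23a1 (chr11:51289920-51583918, plus strand) had 155 and 359 CPM in telocytes, against 57.1 and 47.7 CPM in PDGFRAlo cells. The libraries did not overlap, but the gene did not pass (log2 fold 2.29, adjusted p = 0.0655); it was called under 6 of the alternatives, among them DESeq2 and a fit of the 4 libraries alone (0.000429 to 0.0406 over the 6). Col13a1, known from the neuromuscular junction, overlapped at 21.0 and 18.7 against 27.3 and 10.9 CPM. Col17a1, of epithelial hemidesmosomes, did not exceed 2.30 CPM. Col28a1, a von Willebrand factor domain collagen, had 0 counts in both telocyte libraries, against 1.92 and 2.77 CPM in PDGFRAlo cells, and was at least 23.9-fold lower in telocytes with 3 counts put in that group (adjusted p = 0.0188). Its call was lost without either telocyte library or PDGFRAlo replicate 2 (0.0665 to 0.106). Col7a1, the anchoring fibril of epithelial basement membrane, Col9a3 and Col26a1 stayed at or under 1.64 CPM in all libraries and did not pass.

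Single cells allow the same genes to be read inside classes gated without any collagen. Cells were assigned by the number of markers detected per list, which gave 101 and 88 telocyte-like cells in whole-mesenchyme libraries 1 and 2, 365 and 306 Cd81 stromal-like cells, 681 and 660 other fibroblast-like cells, and between 23 and 226 cells each of blood endothelial-like, lymphatic endothelial-like, pericyte-like, smooth muscle-like and enteric glia-like cells per library. Counts of unique molecular identifiers (UMIs, 1 per captured RNA molecule) were summed per class and library, and 28 of the 44 collagens passed the filter. CPM of single-cell classes below stands for UMIs scaled to the class total only. Bulk CPM stands for reads, which favour long transcripts, with a further scaling between libraries. Levels in the 2 assays are therefore not on the same scale. Collagens took 1.77% and 1.79% of UMIs in telocyte-like cells, 2.68% and 2.48% in Cd81 stromal-like cells and 2.13% and 2.15% in other fibroblast-like cells. T or innate lymphoid-like cells, which should make none, had 0.0102% and 0.00759%, while droplets without a cell had 0.458% and 0.423%. The 2 libraries shared 7 cell barcodes.

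Telocyte-like cells were compared with the mean of both fibroblast-like classes, and 11 of the 13 collagens called in bulk were called the same way. The matching share over all genes called in bulk is not given here. Of 28 tested, 10 were higher in telocyte-like cells, 9 were lower and 9 did not pass, where 8.24% and 9.42% of all 12255 genes were higher and lower. The median log2 fold was -0.17, against -0.03 over all genes. All 5 collagens higher in bulk telocytes were called higher here as well. Of the 8 lower in bulk, 6 were lower here, Col4a3 did not pass (log2 fold -1.96, adjusted p = 0.0806) and Col28a1 was not tested. These cells come from other libraries than the bulk RNA. Blood endothelial markers summed to 35.0 and 9.76 CPM in telocyte-like cells and to 13.8 to 24.5 CPM in the fibroblast-like classes. The gate itself used these markers, so the low sums follow in part from it. The part of endothelial RNA in the single-cell folds was not tested.

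Type IV again divided by pair. Col4a5 had 214 and 220.2 CPM in telocyte-like cells, against 33.7 and 33.2 in Cd81 stromal-like cells and 6.75 and 6.34 in other fibroblast-like cells. Its log2 fold was 3.70 (SE 0.150, adjusted p = 2.28e-21). Col4a6 had 31.1 and 50.2 CPM, against 3.03 and 3.95 and then 0.409 and 0.656 CPM (log2 fold 4.64, SE 0.427, adjusted p = 3.59e-11). For both chains the order of the classes was the same in each library. Col4a4 went the other way, with 1.30 and 4.18 CPM, against 17.2 and 18.9 in Cd81 stromal-like cells and 6.55 and 7.87 in other fibroblast-like cells (log2 fold -2.23, adjusted p = 0.00849). Col4a1 (log2 fold -0.05, adjusted p = 0.809) and Col4a2 (-0.07, 0.717) did not pass.

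Col12a1 had 507 and 555 CPM in telocyte-like cells, against 46.5 and 50.9 in Cd81 stromal-like cells and 91.4 and 95.1 in other fibroblast-like cells (log2 fold 2.81, SE 0.0851, adjusted p = 4.43e-27). Col24a1 had 22.0 and 44.6 CPM, against 0 and 1.58, and 3.27 and 2.19 (log2 fold 4.30, SE 0.508, adjusted p = 2.34e-08), a call lost with DESeq2 (adjusted p = 0.0907). Col27a1 was higher by a log2 fold of 1.12 (adjusted p = 1.19e-06). On the lower side, Col8a1 had 1.30 and 1.39 CPM, against 183 and 181 in Cd81 stromal-like cells and 18.2 and 17.7 in other fibroblast-like cells. With 2 UMIs in telocyte-like cells in all, the summed level was 58.3-fold lower (95% counting interval 16.1 to 482, edgeR adjusted p = 1.19e-13). Col14a1 (-2.23), Col15a1 (-1.35), Col3a1 (-1.11) and Col6a5 (-0.83) were also lower; their bulk log2 folds were -3.11, -4.44, -2.55 and -2.93, and the difference between the assays was not tested.

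Chains that had not passed in bulk were called as well. Col23a1 (log2 fold 1.90), Col13a1 (1.61) and Col6a4 (3.58) were higher in telocyte-like cells, and Col6a1 and Col6a2 were higher by 0.42 and 0.40 on the log2 scale. Col6a4 had 114 and 185 CPM in telocyte-like cells, against 3.37 and 4.34 in Cd81 stromal-like cells and 28.0 and 34.3 in other fibroblast-like cells. Col1a1 (-0.97), Col1a2 (-0.73) and Col5a2 (-0.49) were lower. With DESeq2 the calls of Col1a2, Col5a2 and Col6a2 were lost (adjusted p 0.0742, 0.117 and 0.110). Smooth muscle markers summed to 2618 and 2376 CPM in telocyte-like cells, against 158 to 515 CPM in the fibroblast-like classes, and smooth muscle-like cells themselves had 121 and 108 CPM of Col6a4 and 254 and 250.5 CPM of Col23a1. The part of these markers in the telocyte levels was not tested. In bulk the same list summed to 1670 to 2294 CPM in telocytes and 490.1 to 868 CPM in PDGFRAlo cells, but of its 8 genes 2 were higher in telocytes and 4 were lower. Its genes ran both ways. Acta2 had 1083 and 753 CPM in telocytes, against 266 and 166 CPM in PDGFRAlo cells. Tagln had 571 and 503 against 110 and 67.7 CPM, and Myh11 546 and 305 against 193 and 82.4 CPM. Des, the intermediate filament gene of muscle, had 14.3 and 14.0 CPM in telocytes, against 115 and 53.8 CPM in PDGFRAlo cells.

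**Figure D4:**
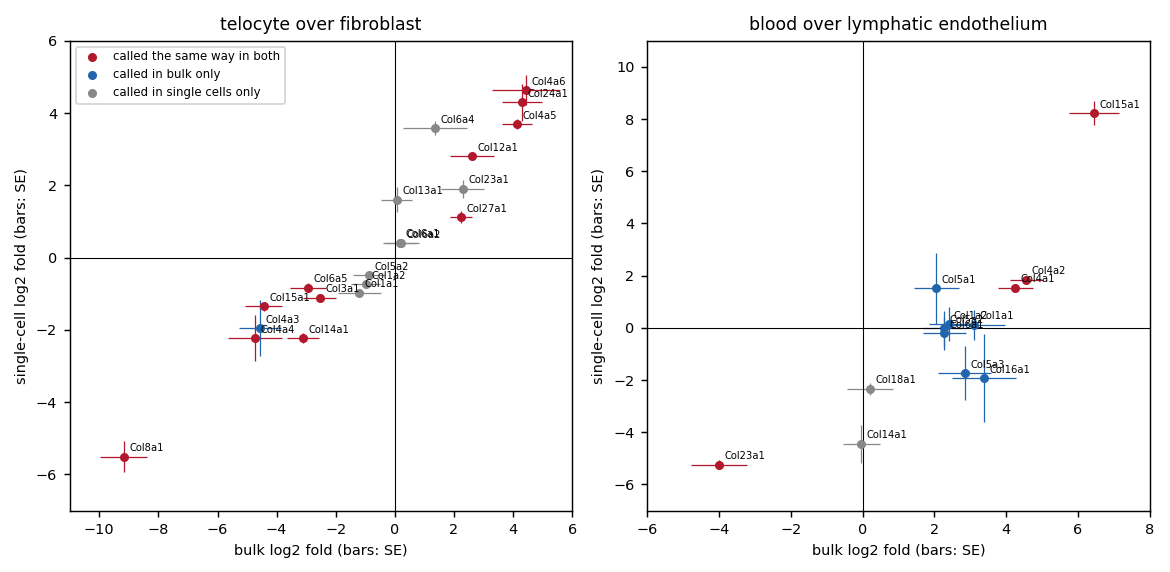
Log2 folds of collagens called in either assay, bulk on the x axis and single cells on the y axis, with bars of 1 SE. Left: telocyte over PDGFRAlo, and telocyte-like over fibroblast-like cells; right: blood over lymphatic endothelium. Genes without a UMI in one class are left out, and Col8a1 (2 UMIs in telocyte-like cells) and Col15a1 on the right (1 UMI in lymphatic endothelial-like cells) are fitted values that depend on the prior count. On the left the 11 genes called the same way in both lie in the lower left and upper right; on the right, Col15a1, Col4a1, Col4a2 and Col23a1 do, while the fibrillar and type VI chains called in bulk did not pass in single cells.

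The sorted GFP+ library held 1060 telocyte-like, 955 Cd81 stromal-like and 1639 other fibroblast-like cells. It is 1 sample, so no test is given, and its exact 95% Poisson intervals cover counting error only. For all 5 collagens higher in bulk telocytes, the interval of telocyte-like cells lay above that of both fibroblast-like classes together. Col4a5 had 105 CPM (95.9 to 114) in telocyte-like cells, against 11.6 (9.81 to 13.7) in fibroblast-like cells. Col12a1 had 349.9 CPM against 48.9, Col24a1 16.7 against 1.48, Col4a6 27.5 against 2.13 and Col27a1 60.2 against 25.1. For 7 of the 8 lower in bulk the interval lay below, Col28a1 being the exception. Intervals also lay apart for collagens that did not pass in bulk. Examples are Col4a1, at 227 CPM in telocyte-like against 255 in fibroblast-like cells, and Col18a1, at 205 against 163. A share over all genes is not given for these intervals, so the counts do not measure agreement. Col4a3 had 0 UMIs in telocyte-like cells, which allows up to 0.710 CPM, against 3.03 (2.14 to 4.18). Col8a1 had 2.69 CPM (1.47 to 4.52) against 80.5 (75.6 to 85.7). Of the chains called in single cells but not in bulk, Col6a4 had 9.05 CPM in telocyte-like cells, against 2.79, with intervals that did not overlap, while for Col13a1 the intervals overlapped, at 5.77 against 4.02 CPM.

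The 2 fibroblast-like classes were also read apart. Of 29 collagens with 10 or more UMIs over the 3 stromal classes in each of the 3 single-cell libraries, 25 had the same highest class in all 3. The matching share over all genes is not given here, so the counts do not set collagens apart from other genes. Telocyte-like cells were highest for 10 of them: Col4a5, Col4a6, Col6a1, Col6a2, Col6a4, Col12a1, Col13a1, Col23a1, Col24a1 and Col27a1. Cd81 stromal-like cells were highest for 8, the type I and III chains, Col4a3, Col4a4, Col8a1, Col8a2 and Col14a1. Other fibroblast-like cells were highest for 7: Col4a1, Col4a2, Col5a1, Col6a5, Col15a1, Col18a1 and Col22a1. Col14a1 had 1497 and 1415 CPM in Cd81 stromal-like cells of the whole-mesenchyme libraries, against 626 and 637 in other fibroblast-like cells, and 971 against 467 in the sorted library. Col6a5 had 120.2 and 135 CPM in Cd81 stromal-like cells, against 346 and 356 in other fibroblast-like cells, and 45.3 against 215 in the sorted library. Some of these orders rest on small gaps, such as Col5a1 at 558 and 529 CPM in Cd81 stromal-like and 588 and 609 in other fibroblast-like cells. No test was run between these 2 classes.

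In the endothelium the sorts ask how vessels of blood and lymph differ. Of 36 collagens, 16 were higher in blood than in lymphatic endothelium, 2 were lower (Col23a1 and Col26a1) and 18 did not pass. Over all genes 14.7% were higher and 8.32% lower in blood endothelium. The median log2 fold (blood over lymphatic) was 2.27 over collagens (1.93 with genes at 0 put at their bound) and 0.12 over all genes. Type IV, type XV and type XIII collagen led in blood vessels and type XXIII in lymphatics. Counts depended on single libraries: the 16 became 8 without blood replicate 2, 7 without lymphatic replicate 1 and 5 without lymphatic replicate 2.

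Col4a1 had 1406 and 1593 CPM in blood endothelium, against 86.5 and 70.5 CPM in lymphatic endothelium (log2 fold 4.26, SE 0.492, adjusted p = 0.00141). Col4a2 had 1015 and 951 CPM, against 52.1 and 31.3 CPM (log2 fold 4.56, SE 0.459, adjusted p = 0.00122). Lymphatic capillaries are known for a sparse basement membrane. Pericyte markers summed to 129 to 306 CPM in the blood libraries and 182 to 245 CPM in the lymphatic libraries, with 6 of 8 genes higher and 1 lower in blood endothelium. Smooth muscle markers summed to 206 to 490.2 CPM in the blood and 106 to 139 CPM in the lymphatic libraries, with 3 of 8 higher and 0 lower. Pericyte-like and smooth muscle-like single cells themselves had 811 to 899.7 CPM of Col4a1, and the part of such cells in these folds was not tested. Col15a1 had 321 and 473 CPM in blood endothelium, against 7.70 and 1.75 CPM (log2 fold 6.45, SE 0.698, adjusted p = 0.00127). Col13a1 (chr10:61838236-61979108, minus strand) had 99.3 and 169 CPM, against 5.13 and 1.95 CPM (log2 fold 5.30, SE 0.643, adjusted p = 0.00169). These 4 were called under every alternative run, with both blood libraries above both lymphatic ones, as for 33.3% of all genes. The α3 and α4 chains of type IV were also higher in blood endothelium, Col4a3 at 27.0 and 9.68 CPM against 1.49 and 0.605 CPM, and Col4a4 at 3.97 and 2.35 CPM against 0.270 and 0.134 CPM. Col8a1 was higher by a log2 fold of 3.41 and Col28a1 at least 9.24-fold, and Col17a1 (141 counts in blood, 1 in lymphatic endothelium) had a ratio of 47.5 (95% counting interval 8.38 to 1888). Without lymphatic replicate 2 the calls of Col4a3, Col4a4, Col8a1, Col17a1 and Col28a1 were lost.

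Col23a1, a transmembrane collagen whose ectodomain can be shed, had the highest level per kilobase of any collagen in the lymphatic libraries. It had 4.75 and 24.2 CPM in blood endothelium, against 157 and 304 CPM in lymphatic endothelium (log2 fold -4.00, SE 0.779, adjusted p = 0.00790), and both blood libraries lay below both lymphatic ones, as for 26.9% of all genes. Without lymphatic replicate 2 it did not pass (0.0530). Col26a1 had 0 counts in blood endothelium and 0.945 and 0.740 CPM in lymphatic endothelium, at least 18.6-fold lower in blood (adjusted p = 0.0253), and lost its call under 6 settings (0.0515 to 0.0980). Fibrillar and type VI chains were low in both sorts: Col1a1 had 3.22 and 18.2 CPM in blood endothelium, against 1.35 and 1.14 CPM in lymphatic endothelium, and was called higher (log2 fold 3.11, adjusted p = 0.0309), as were Col1a2, Col5a1, Col5a2, Col5a3, Col6a1 and Col16a1. Each of these 7 lost its call in 3 or more settings. Fibroblast markers summed to 622 to 948 CPM in the blood libraries and 1000.2 to 1049 CPM in the lymphatic libraries, with 2 of the 8 genes higher and 1 lower in blood endothelium. Their part was not tested.

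The remaining chains held little of the endothelial counts, and blood replicate 2 had the highest level of most of them. Of the fibrillar chains, Col1a2 had 14.3 and 34.1 CPM in blood endothelium, against 3.78 and 5.31 CPM in lymphatic endothelium. Col3a1 had 22.6 and 43.6 CPM, against 14.0 and 8.61 CPM. The blood libraries lay above the lymphatic ones for both of these main fibre chains. Col5a1, which starts fibres, had 5.22 and 23.4 CPM in blood endothelium, against 3.11 and 3.70 CPM in lymphatic endothelium, and its partner Col5a2 had 5.46 and 21.6 CPM, against 2.97 and 2.62 CPM. Col5a3 had 2.08 and 2.85 CPM, against 0 and 0.538 CPM. Col27a1 was the fibrillar chain with both blood libraries below both lymphatic ones, at 0.284 and 0.503 CPM against 0.675 and 0.807 CPM.

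The beaded-filament chains were uneven between the blood libraries. Col6a1 had 6.60 and 18.8 CPM in blood endothelium, against 1.89 and 3.23 CPM in lymphatic endothelium. Col6a2 had 3.76 and 16.4 CPM, against 2.16 and 3.50 CPM, and Col6a3 had 2.27 and 11.4 CPM, against 0.810 and 1.68 CPM. In all 3 the second blood library was well above the first. Col6a4 had 0.0946 and 3.9 CPM in blood endothelium, against 0 in both lymphatic libraries, and Col6a5 had 0.0236 and 0.419 CPM, against 0.270 and 0.0672 CPM. Of the other chains, Col8a1 had 13.4 and 20.8 CPM in blood endothelium, against 2.57 and 0.874 CPM in lymphatic endothelium. Among the FACIT collagens, Col12a1 had 0.520 and 3.94 CPM in blood endothelium, against 0.270 and 0.874 CPM, and Col16a1 had 0.757 and 3.31 CPM, against 0.270 and 0.134 CPM. Col14a1 overlapped, at 9.22 and 24.1 CPM against 13.6 and 20.3 CPM. The telocyte-high type IV chains were near 0 in both sorts: Col4a5 had 0.733 and 0.922 CPM in blood endothelium, against 0.540 and 1.14 CPM, and Col4a6 had 0 and 0.754 CPM, against 0 in both lymphatic libraries. Col28a1 had 0.520 and 1.97 CPM in blood endothelium, against 0 in both lymphatic libraries.

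In single cells, 7 collagens were higher in blood endothelial-like than in lymphatic endothelial-like cells (background 13.7%), 4 were lower (background 10.1%) and 17 did not pass. Col4a1, Col4a2, Col4a3, Col8a1, Col13a1 and Col15a1 were higher in both assays, and Col23a1 was lower in both. Col15a1 had 429 and 362 CPM in blood endothelial-like cells, against 2.77 and 0 in lymphatic endothelial-like cells. With 634 UMIs against 1 the ratio was 269 (95% counting interval 48.1 to 10640.1, edgeR adjusted p = 1.84e-18). Col13a1 had 143 and 117 CPM, against no UMI in lymphatic endothelial-like cells of either library, at least 29.6-fold. Col23a1 had 21.2 and 20.0 CPM, against 967 and 834 in lymphatic endothelial-like cells (log2 fold -5.24, adjusted p = 2.02e-26). That class held 72 and 60 cells, gated apart from plasma-like cells. Col4a1 had 981 and 934 CPM, against 360.3 and 401, a log2 fold of 1.54 (adjusted p = 3.86e-12) where bulk gave 4.26.

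Other chains did not follow bulk. Col18a1, at 11.2 and 56.5 CPM in blood endothelium against 23.6 and 34.4 CPM in lymphatic endothelium in bulk (not past), had 37.4 and 43.7 CPM in blood endothelial-like cells, against 244 and 232 in lymphatic endothelial-like cells (log2 fold -2.34, adjusted p = 8.38e-11). Col14a1 was lower in blood endothelial-like cells too (2.49 and 1.25 CPM against 30.5 and 68.9, 25.9-fold lower with an interval of 8.13 to 132 from 3 and 33 UMIs). Col27a1 had 0 UMIs there, against 5.54 and 9.40 CPM from 5 UMIs, at least 3.93-fold lower. Col6a3 was called higher in blood endothelial-like cells on 9 UMIs against 0, at least 1.27-fold. Its call was lost in 4 settings, among them DESeq2. Of the bulk calls higher in blood, 8 did not pass in single cells: Col1a1, Col1a2, Col4a4, Col5a1, Col5a2, Col5a3, Col6a1 and Col16a1. Col1a1 had 16.2 and 11.2 CPM in blood endothelial-like cells, against 16.6 and 12.5 in lymphatic endothelial-like cells, with 13.7 and 9.08 CPM in T or innate lymphoid-like cells.

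Set against both endothelia, the 2 PDGFRA populations carried the fibrous collagens. In bulk 23 of 36 collagens were higher in the PDGFRA populations (background 28.8%) and 0 were lower (31.7% of all genes were), with 0 lower also under DESeq2. At an unadjusted p under 0.05 the count in either direction was 24 of 36 collagens, and 9651 of all 14893 genes, a similar share. The median log2 fold was 6.05, against -0.07 over all genes. The strain differed together with the sort in this comparison, so line and cell type cannot be told apart in bulk. In single cells, where all classes come from the same suspensions, 24 of 28 collagens were higher in the stromal classes (background 27.1%) and 1, Col23a1, was lower (background 20.0%). The 2 assays shared 21 collagens called higher. The matching share over all genes is not given here, so the count does not measure agreement.

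Chains of types I, III and VI were among those with the widest gaps. Col6a1 had 3839.9 to 5537 CPM over the 4 PDGFRA libraries, against 1.89 to 18.8 CPM over the 4 endothelial ones, and Col1a2 had 3899 to 8589.5 CPM against 3.78 to 34.1 CPM. Their log2 folds were 9.64 and 9.16 (adjusted p = 4.0e-06 and 3.26e-06). Col24a1, without a count in endothelium, was at least 1358-fold higher. The basement-membrane chains differed least among those called: Col4a1 by a log2 fold of 2.52 (adjusted p = 0.000183) and Col4a2 by 2.18 (0.000243) in bulk, and by 0.40 and 0.67 in single cells. Col4a3, Col8a1, Col13a1, Col15a1 and Col23a1 did not pass in bulk, where blood or lymphatic endothelium had levels near or above those of a PDGFRA population.

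Pericytes and smooth muscle cells were not sorted in bulk. Both lie in vessel walls, and smooth muscle also forms the muscle of the mucosa, which the marker list does not set apart. Between pericyte-like and smooth muscle-like cells 6 collagens were higher in pericyte-like cells, 10 were lower and 12 did not pass, where 9.01% of all genes were called in either direction. Pericyte-like cells numbered 23 and 37. Col4a5 had 119 and 100.0 CPM in pericyte-like cells, against 19.3 and 20.9 in smooth muscle-like cells (log2 fold 2.25, adjusted p = 3.58e-05), so the telocyte-like class was not the one cell class with it. Col5a3 (1.62), Col14a1 (1.57) and Col18a1 (0.96) were also higher in pericyte-like cells, as were Col4a3 and Col4a4, which rest on 4 UMIs against 1 and 7 UMIs against 1. Col23a1 had 9.89 and 0 CPM, against 254 and 250.5 in smooth muscle-like cells (1 UMI against 694, 68.5-fold lower with an interval of 12.3 to 2710, adjusted p = 3.69e-11). Col6a4 had no UMI in pericyte-like cells and was at least 10.4-fold lower there. Col12a1 (-2.73), Col8a1 (-2.15), Col1a1 (-2.08), Col6a1 (-1.51), Col6a2 (-1.36), Col3a1 (-1.30), Col1a2 (-1.01) and Col6a3 (-0.70) were lower too. The Col6a3 call was lost in 4 settings, among them DESeq2 (adjusted p 0.05365 to 0.239). That of Col5a3 was lost in 2 edgeR settings, no filter and empty-droplet counts subtracted (0.06533 to 0.06716). With DESeq2 the calls of Col1a2 and Col8a1 were lost (adjusted p 0.1446 and 0.05891). Fibroblast markers summed to 1148 and 1141 CPM in pericyte-like and 7870 and 7316 in smooth muscle-like cells, and their part in the fibrillar and type VI levels was not tested. Col4a1 did not pass, at 811 and 899.7 against 867 and 853 CPM.

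Enteric glia-like cells, the support cells of gut neurons, numbered 37 and 25 and differed from the stromal classes in both directions. Of 28 collagens, 6 were higher than in the mean of the stromal classes (background 9.65%), 15 were lower (background 12.0%) and 7 did not pass. Col20a1 (chr2:180986535-181018363, plus strand), a little-studied FACIT collagen, had 623 and 300.3 CPM in glia-like cells and at most 1.58 CPM in the stromal classes (log2 fold 8.54, SE 0.347, adjusted p = 1.32e-21). In bulk it had 0.922 to 4.62 CPM over all 8 libraries. Col16a1 had 707 and 576 CPM, against 142 to 157 in the stromal classes (log2 fold 1.87, adjusted p = 1.23e-14). Col18a1 had 963 and 726 CPM, against 160.3 to 433 (log2 fold 1.26, adjusted p = 3.86e-10). Col27a1 (1.49), Col4a4 (2.14) and Col12a1 (0.68) were higher as well. The Col4a4 call rests on few UMIs in glia-like cells. Among collagens too low to be tested, Col9a3 had 61.2 and 8.34 CPM and Col26a1 22.3 and 16.7 CPM in glia-like cells. These levels rest on few UMIs too. Over all classes Col26a1 had 4 and 3 UMIs, and Col9a3 had 20 and 18. In library 2 the Col9a3 level in glia-like cells is 1 UMI, and lymphatic endothelial-like cells had 6.27 CPM. Col6a5 was at least 25.6-fold lower and Col4a5 at least 3.45-fold lower, with no UMI in glia-like cells. Among the genes lower in glia, Col3a1 still had 568 and 500.5 CPM; fibroblast markers summed to 1169 and 759 CPM in this class, and to 186 and 159 in T or innate lymphoid-like cells.

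**Figure D5:**
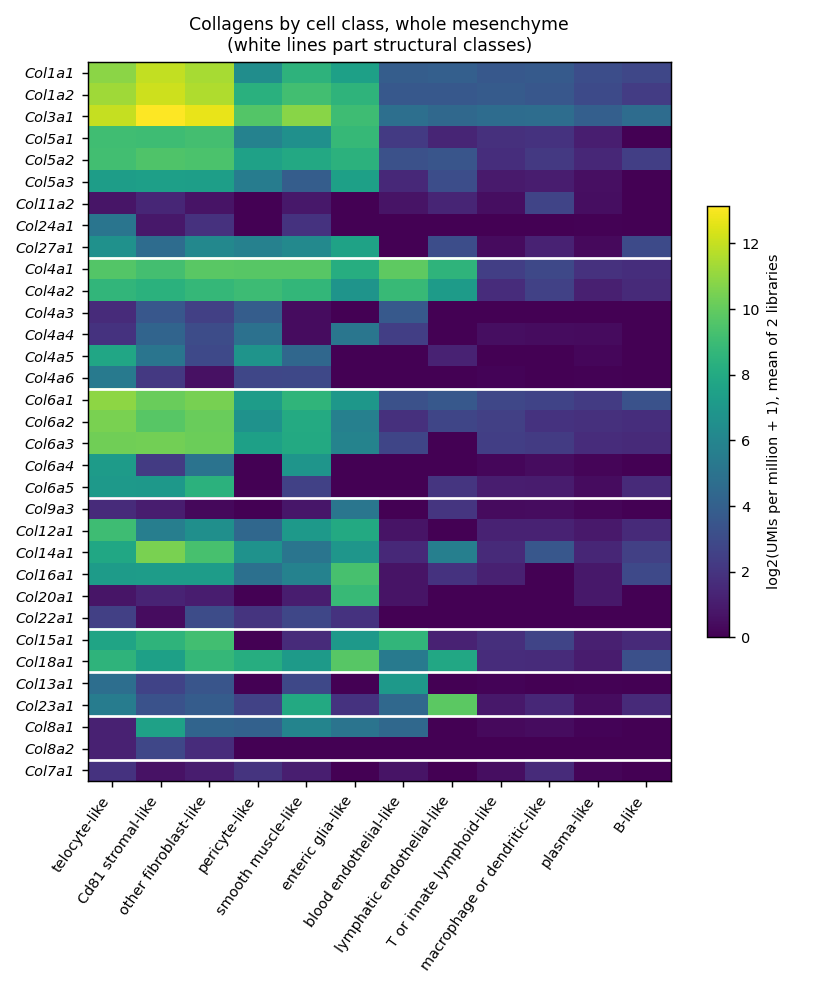
Mean level over the 2 whole-mesenchyme libraries, as log2(CPM + 1), of the 33 collagens with 10 or more UMIs in each library (rows, by structural class) in 12 cell classes (columns). Brighter cells are higher. Col20a1 is bright in enteric glia-like cells, Col23a1 in lymphatic endothelial-like cells, Col13a1 in blood endothelial-like cells, and Col4a5, Col4a6 and Col24a1 in telocyte-like cells.

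Collagen chains are made functional by other proteins, of which a list of 42 was drawn up: prolyl and lysyl hydroxylases, chaperones, proteinases that remove the propeptides, cross-linking oxidases and receptors. Between telocytes and PDGFRAlo cells 3 of 41 tested passed as higher and 3 as lower in telocytes, and 35 did not pass, with a median log2 fold of -0.34. Over all genes 2.77% were higher and 12.1% lower, with a median of -0.03. Pcolce2, an enhancer of procollagen C-proteinase, had 0.214 and 0 CPM in telocytes, against 130 and 206 CPM in PDGFRAlo cells (3 counts against 6417, adjusted p = 0.000242). Adamts2, which removes the N-propeptide of type I to III procollagens, had 38.6 and 9.57 CPM, against 482 and 526 CPM (log2 fold -4.39, adjusted p = 0.00255). Lox, a lysyl oxidase that cross-links fibres, had 81.8 and 30.2 CPM, against 340.4 and 284 CPM (log2 fold -2.48, adjusted p = 0.0108). The collagen-binding integrin genes Itga1 (log2 fold 1.42, adjusted p = 0.0267) and Itga11 (1.81, 0.0419) and the tolloid-like proteinase gene Tll2 (365 counts against 1, 0.00510) were higher in telocytes. Itga11 had 641 and 821 CPM in telocytes, against 154 and 262 CPM in PDGFRAlo cells.

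In single cells 8 of 40 such genes were higher in telocyte-like than in fibroblast-like cells, 17 were lower and 15 did not pass, where 8.24% of all genes were higher and 9.42% lower. Pcolce2 (log2 fold -4.49, adjusted p = 6.71e-13) and Adamts2 (-1.48, 9.42e-13) were lower and Itga1 (1.69, 2.48e-16) higher in both assays. Loxl1 (-1.29), the collagen-binding secreted protein gene Sparc (-0.84) and the lysyl hydroxylase gene Plod2 (-1.20) were also lower. Between blood and lymphatic endothelium 11 of 41 were higher in blood (background 14.7%) and 4 were lower (8.32%), with the prolyl hydroxylase gene P4ha2 (log2 fold 3.10, adjusted p = 0.00127), the collagen receptor gene Ddr2 (3.85, 0.00135), Plod2 (2.38, 0.00332), Lox (4.53, 0.00360) and Itga1 (2.31, 0.00365) higher and P3h3 (-3.08, 0.00227) lower. Against endothelium, 33 of 41 were higher in the PDGFRA populations (background 28.8%), led by Ddr2, Mrc2 (a collagen uptake receptor gene), Loxl4, Itga11, Plod2 and Bmp1 (log2 folds 7.14, 10.43, 8.12, 10.65, 3.94 and 3.95), and 3 were lower (31.7%).

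Of 40 genes, 34 were higher in the stromal than in the endothelial classes (background 27.1%) and 3 were lower (20.0%), with Sparc (log2 fold 5.36), the proteinase enhancer gene Pcolce (8.96), Loxl2 (3.71), the collagen chaperone gene Serpinh1 (2.45) and Ddr2 (8.07) among the highest-ranked, and Loxl1 at least 187-fold higher. In blood against lymphatic endothelial-like cells 7 were higher (background 13.7%) and 6 lower (10.1%). Sparc (6.19), Serpinh1 (1.26) and P4ha2 (48 UMIs against 1) were higher, and Loxl2 (-5.62), P3h3 (-2.75) and Plod1 (-1.53) were lower. In pericyte-like against smooth muscle-like cells 2 were higher and 5 were lower, where 9.01% of all genes were called in either direction. Sparc was higher by 0.50, and Itgb1 (-0.54), Loxl2 (-1.35), Ppib (-0.76), Serpinh1 (-0.72) and Loxl1 (1 UMI against 116) were lower. In glia-like against stromal cells 4 were higher (background 9.65%), among them the prolyl hydroxylase gene P3h2 (4.25) and Itga1 (1.49), and 24 were lower (background 12.0%), among them Pcolce (-5.24), Ddr2 (-4.18), Serpinh1 (-1.37) and Mrc2 (at least 20.1-fold).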

How the data were processed

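The authors deposited a table of whole-number read counts per gene for 8 bulk libraries (SMART-Seq v4) and whole-number UMI counts per gene and barcode for 3 droplet libraries. Alignment used STAR and mm10, and the droplet data Cell Ranger 2.1.1 or 3.0.2, per the submitters' processing notes; the program and annotation used for counting, and its use of strand, were not given in the sources used here. Of 24969 bulk names, 26 were dates, a spreadsheet conversion of symbols (0.131% to 0.523% of counts), and were left out. Coordinates are from GENCODE M21 on GRCm38.

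Bulk counts were tested with edgeR 4.0.16 (R 4.3.3) in 1 model of 4 group means, with TMM scaling, the filterByExpr filter and the quasi-likelihood test. P-values were adjusted by Benjamini-Hochberg over all genes tested, with a threshold of 0.05. CPM are TMM-scaled. Levels between genes were compared only per kilobase. In single cells, barcodes with at least 500 genes and under 10% mitochondrial UMIs were kept (3845, 6128 and 5927 after removal of 45, 98 and 113 predicted doublets at a score of 0.25). Telocyte and fibroblast, pericyte and smooth muscle, and both endothelial lists were first pooled, each by its larger share. A cell went to the pool or list with the largest share of detected genes. It needed at least 3 markers and a share 1.5 times the next. Of stromal cells, 3 or more telocyte markers gave telocyte-like and 5 Cd81 stromal markers Cd81 stromal-like cells. Cells with both were unassigned, the rest other fibroblast-like. Pericyte and smooth muscle were set by the larger share. Endothelial cells with 3 lymphatic markers were lymphatic, those with at most 1 blood. Unassigned cells were 28.8% and 29.4% of whole mesenchyme. No collagen was used. UMIs were summed per class and whole-mesenchyme library (minimum 20 cells), and tested with edgeR with library as a block. The labels of the whole-mesenchyme libraries repeat the GFP sort text of the sorted library. Empty droplets are barcodes with up to 100 UMIs. Intervals are exact at 95% and cover counting error only, and bounds put 3 counts in a group at 0, over the group.

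The members and lists were chosen with earlier results of these data known. Values in every library are given for collagens with a mean of 20 CPM or more in any population or called between telocytes and PDGFRAlo cells, and up to 6 called genes with the smallest p were named from the processing list. DESeq2 1.42.0, other scaling, no filter, other gates and leaving out each library were the alternatives. The tests were tried on simulated counts before use.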

Additional observations from a re-analysis of the deposited data

How the results depend on the processing

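No call of the report changed direction in any setting. Between telocytes and PDGFRAlo cells the count of higher collagens, 5, ranged from 3 to 6 when 1 library was left out, and that of lower collagens, 8, from 3 to 9. Between blood and lymphatic endothelium the 16 higher collagens ranged from 5 to 20 and the 2 lower ones from 0 to 2. The 16 became 10 when the compared groups were fitted alone, 22 with no low-count filter and 20 with DESeq2. For the PDGFRA populations against endothelium the 23 higher ranged from 23 to 25 and the 0 lower from 0 to 1, the 1 being Col15a1 without lymphatic replicate 2 (adjusted p = 0.0342). Col4a5, Col24a1, Col27a1, Col8a1, Col15a1 and Col4a3 kept their bulk telocyte call in every setting run. Whether same-numbered bulk libraries are paired is not known. They correlated at -0.103 to 0.195 over deviations from group means, which with 2 libraries a group cannot decide it. With a replicate block the counts were 6 higher and 8 lower for telocytes, 17 and 1 for blood endothelium, and 24 and 0 for the PDGFRA populations. In single cells, fits with no replicate block gave the same counts as the main fits (10 and 9, 24 and 1, 7 and 4, 6 and 10, 6 and 15), and no count moved by over 1.5 times. Over single genes and settings, 1208 of the bulk values and 944 of the single-cell values stayed on their side of the threshold and in direction, while 67 and 17 lost a call 32 and 5 gained one, and 47 and 13, without a call in either fit, changed direction or came to 0. With 2 libraries a group and small glia-like and pericyte-like classes, modest differences in weakly expressed chains were not detectable at this depth.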
